A study of Mus musculus with 22 samples.

Results

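The genes that release stored fat and coat the fat droplet were followed in inguinal white fat of cold-exposed mice. The set holds 10 genes of the 22180 tested, chosen by symbol for their role: the lipases Pnpla2, Lipe and Mgll, the lipase cofactor Abhd5, the lipase inhibitor G0s2, and the perilipins Plin1, Plin2, Plin3, Plin4 and Plin5. A gene was read from the probe set that carries its symbol alone, and where several did, from the one with the highest mean over all arrays. All 10 genes had such a probe set, and G0s2 had 2.

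Male mice of C57BL/6 background were used. They were wild type or PPARα-null, the latter without a working copy of a nuclear receptor that fatty acids activate. Per the labels they were 3 to 4 months old, spent 5 weeks at 28 °C (thermoneutrality) and then either stayed there or went to 21 °C for 1 week and on to 5 °C for 10 days. Each array held the inguinal fat of 1 mouse: of wild-type mice 6 warm and 5 cold, and of null mice 6 warm and 5 cold, where warm and cold stand for 28 °C and 5 °C. The null animals came from a purchased knockout strain that had been backcrossed to C57BL/6J and bred on site, and the labels do not say whether the mice compared were littermates. The question was whether the receptor is needed for the response of this depot to cold.

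Fat is stored as triglyceride in droplets and is broken down in steps. Adipose triglyceride lipase (Pnpla2) removes the first fatty acid, hormone-sensitive lipase (Lipe) acts on the diglyceride that is left, and monoglyceride lipase (Mgll) frees the last fatty acid from glycerol. The cofactor Abhd5 switches Pnpla2 on, G0s2 blocks it, and perilipin 1 holds Abhd5 at the droplet until adrenergic signals release it. Perilipins 2 to 5 also coat droplets. Perilipin 5 does so mostly in cells that burn much fat, where it tethers droplets to mitochondria. Several of these genes, Plin2 and G0s2 among them, are known targets of PPARs.

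Averaged over both genotypes, Plin5 rose 4.40-fold and Plin2 1.78-fold, G0s2 1.45-fold, Abhd5 1.30-fold, Plin3 1.19-fold, Mgll 1.18-fold and Pnpla2 1.14-fold. Plin4 fell to 0.847 of its level at 28 °C. Lipe and Plin1 did not pass, with changes of 0.07 and −0.01 log2 units. A gene was called where limma's p, adjusted by Benjamini-Hochberg across the 22180 genes, was under 0.05. In this average 7 of the 10 genes rose and 1 fell, against 24.8% of all genes called, 11.7% higher and 13.1% lower. The 10 genes were not matched to all genes by brightness. Their lowest value on any array was 5.25, above the array medians of 4.63 to 4.77. The median change was 0.24 log2 units for the 10 genes and 0.01 for all genes. All fold values are folds of array signal. A probe set's level shows how bright it is on the array and cannot rank genes by their amount of RNA.

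**Figure D1:**
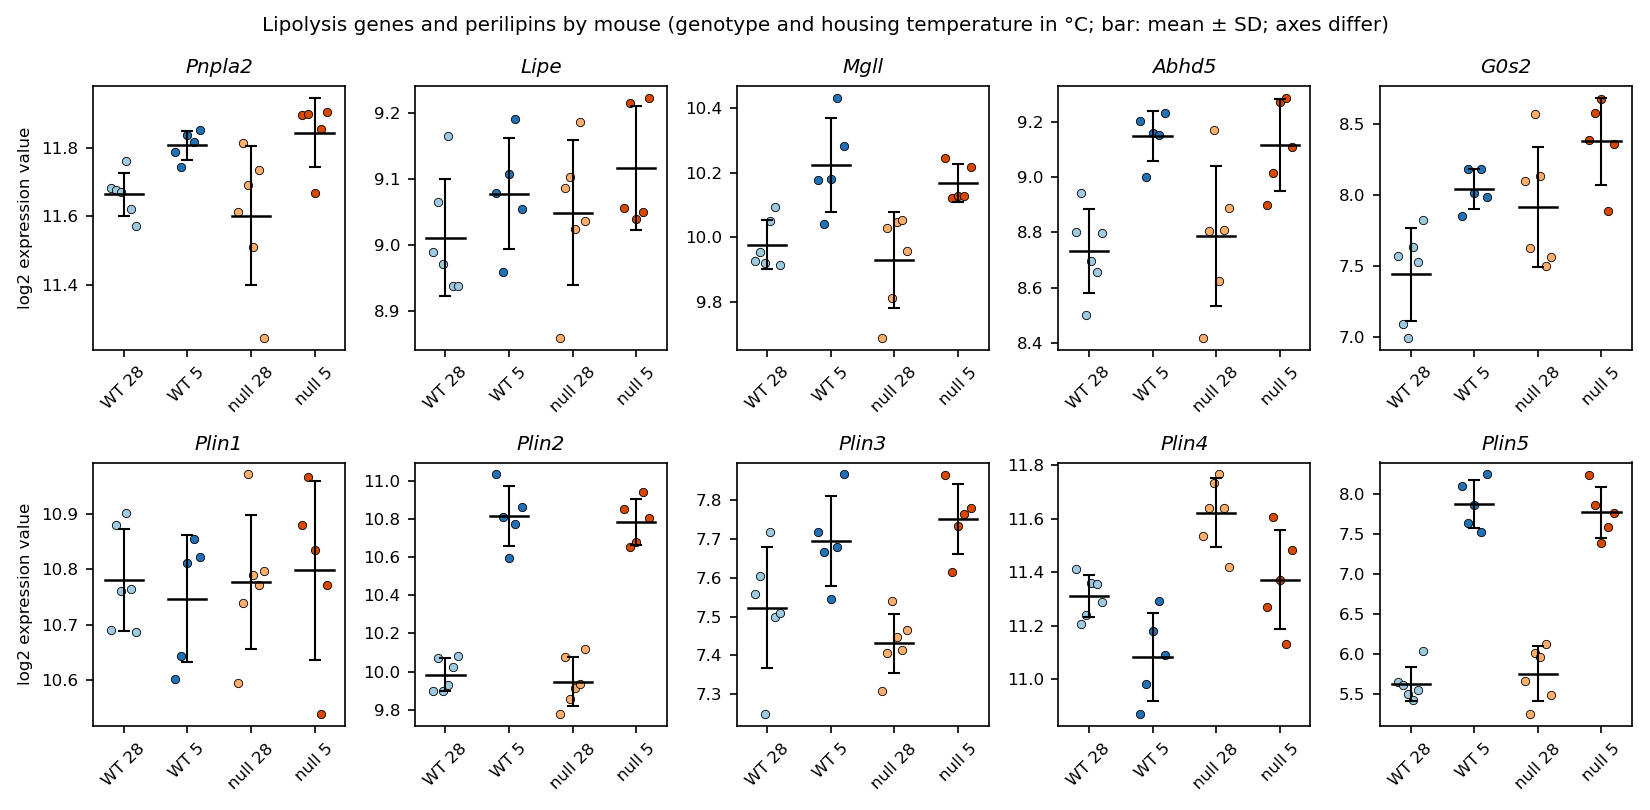
Log2 expression value of each of the 10 genes in every mouse, by genotype and housing temperature, with each axis scaled to its own gene. Points are mice and bars are the group mean ± SD. Plin5 and Plin2 separate the 5 °C from the 28 °C mice in both genotypes, while Lipe and Plin1 overlap in every group.

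Plin5, the perilipin of fat-burning tissues, gave the widest separation. In wild-type mice at 28 °C its log2 value ran from 5.43 to 6.03, with a median of 5.58. At 5 °C the wild-type mice gave 8.11, 7.64, 7.87, 7.52 and 8.25. Every cold wild-type mouse lay above every warm one. Null mice ran from 5.25 to 6.13 at 28 °C, with a median of 5.81. At 5 °C they gave 8.25, 7.87, 7.39, 7.59 and 7.77, again with no overlap. The cold effect was 2.25 log2 units in wild-type mice (SE 0.17, limma adjusted p = 7.57e-09), a 4.76-fold change with a 95% interval of 3.72 to 6.09. In null mice it was 2.02 (SE 0.17, limma adjusted p = 3.77e-08), or 4.07-fold with an interval of 3.18 to 5.20. For scale, the median of all genes on an array was 4.63 to 4.77.

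Plin2, a perilipin that coats droplets in most cell types and is often used to mark stored lipid, rose less, also without overlap. Wild-type mice at 28 °C ran from 9.90 to 10.08, with a median of 9.98. At 5 °C they gave 11.03, 10.81, 10.60, 10.78 and 10.86. Null mice ran from 9.78 to 10.12 at 28 °C, with a median of 9.93, and gave 10.85, 10.65, 10.68, 10.94 and 10.81 at 5 °C. No cold value reached the warm range in either genotype. The cold effects were 0.83 in wild-type mice (SE 0.08, limma adjusted p = 1.92e-07) and 0.84 in null mice (SE 0.08, limma adjusted p = 2.33e-07).

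The RefSeq promoter table (GRCm38.p6) held an entry for all 10 genes. The 250 bases before the transcript start were searched on both strands, because Plin5 and Plin2 moved together and a direct repeat of the nuclear receptor core motif AGGTCA is the element that PPARs bind. The full repeat, AGGTCA and AGGTCA with any 1 base between them, was in none of the 10 genes' windows and in 0.0335% of 32851 promoters. The core motif alone, which the full repeat holds, was in a window of 3 of the 10 genes, Plin5, Plin2 and Abhd5. It was in 14% of all promoters. The count of the 10 is by gene and the share is by promoter, and Lipe, Mgll and Plin5 had 2 promoters each. The count and the share therefore cannot be compared directly. The windows of the 2 genes with the largest rise are shown, with the core motif on either strand in capitals. The Plin5 window is chr17:56117549-56117798 and that of Plin2 is chr4:86670060-86670309, both on the minus strand, and a second Plin5 start in the table held no core motif.
Plin5: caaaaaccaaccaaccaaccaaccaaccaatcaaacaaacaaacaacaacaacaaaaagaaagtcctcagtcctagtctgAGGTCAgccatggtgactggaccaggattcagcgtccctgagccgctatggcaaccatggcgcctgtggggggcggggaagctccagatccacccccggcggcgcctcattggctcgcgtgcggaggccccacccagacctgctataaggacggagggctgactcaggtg
Plin2: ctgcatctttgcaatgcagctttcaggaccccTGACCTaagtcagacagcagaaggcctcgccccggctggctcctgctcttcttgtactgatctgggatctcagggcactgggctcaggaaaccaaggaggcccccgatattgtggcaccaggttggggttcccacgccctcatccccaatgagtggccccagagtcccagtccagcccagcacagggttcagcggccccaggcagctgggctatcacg
A match of these letters is a description of the sequence and not evidence of binding.

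Plin3, a perilipin that moves between the cytosol and young droplets, rose by 0.25 on average (SE 0.05, limma adjusted p = 0.00165). In null mice it went from a range of 7.31 to 7.54 at 28 °C to 7.86, 7.62, 7.73, 7.76 and 7.78 at 5 °C, which do not overlap, and the change of 0.32 passed (limma adjusted p = 0.00666). In wild-type mice it ran from 7.25 to 7.72 at 28 °C and was 7.72, 7.67, 7.54, 7.68 and 7.87 at 5 °C. These values overlap, and the change of 0.17 did not pass (limma adjusted p = 0.146). The cold effects were not shown to differ, with a null minus wild-type difference of 0.15 (95% interval −0.08 to 0.38, limma adjusted p = 0.986).

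Plin1, the main coat protein of the white adipocyte droplet and the gate of lipolysis, stayed within its spread. Wild-type mice ran from 10.69 to 10.90 at 28 °C, with a median of 10.76, and gave 10.60, 10.64, 10.81, 10.85 and 10.82 at 5 °C. Null mice ran from 10.60 to 10.97 at 28 °C and gave 10.88, 10.97, 10.83, 10.54 and 10.77 at 5 °C. All 4 groups overlap. The average cold effect was −0.01 with a 95% interval of −0.13 to 0.11 (limma adjusted p = 0.958).

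Plin4, a perilipin abundant in white adipocytes that coats small new droplets, was the 1 gene of the set that fell. Wild-type mice ran from 11.21 to 11.41 at 28 °C, with a median of 11.32, and gave 10.87, 10.98, 11.18, 11.29 and 11.09 at 5 °C. Null mice ran from 11.42 to 11.76 at 28 °C, with a median of 11.64, and gave 11.27, 11.61, 11.37, 11.13 and 11.48 at 5 °C. Warm and cold mice overlap within each genotype. The average cold effect was −0.24 (SE 0.06, limma adjusted p = 0.00717), while neither the wild-type effect of −0.23 nor the null effect of −0.25 passed alone (limma adjusted p = 0.0914 and 0.0727). Without wild-type 5 °C replicate 4 the wild-type effect was −0.28 and passed (limma adjusted p = 0.0439). Without null 5 °C replicate 2 or null 28 °C replicate 6 the null effect was −0.31 or −0.29 and passed (limma adjusted p = 0.0282 and 0.0393).

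**Figure D2:**
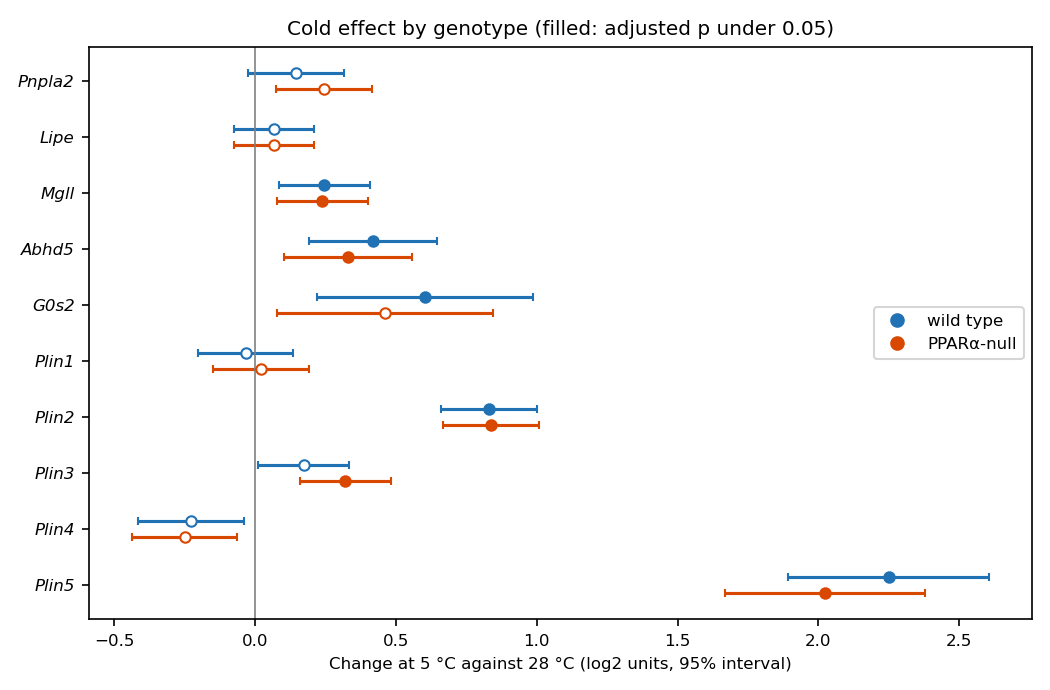
Change in log2 expression value at 5 °C against 28 °C for each of the 10 genes, in wild-type mice (blue) and PPARα-null mice (orange), with 95% intervals. Filled points passed the test. Plin5 at 2.25 and 2.02 and Plin2 at 0.83 and 0.84 stand to the right of the other genes, and Plin4 at −0.23 and −0.25 lies to the left of 0.

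Counted by genotype, 5 of the 10 genes rose and 0 fell in wild-type mice (16.7% of all genes called, 8.35% higher and 8.3% lower), and 5 rose and 0 fell in null mice (13.2% called, 6.88% higher and 6.33% lower). The genes called in both were Mgll, Abhd5, Plin2 and Plin5. G0s2 was called in wild-type mice and Plin3 in null mice. At an unadjusted p under 0.05, 7 and 8 of the 10 genes differed, against 6272 and 5370 of all 22180 genes. The wild-type count was 3 without 28 °C replicate 2 or 3, and the null count was 3 without 5 °C replicate 5 or 28 °C replicate 1. Groups did not overlap for 4 genes in wild-type mice and 4 in null mice, against 11.8% and 9.11% of all genes.

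The lipases changed little. Pnpla2, the enzyme of the first step, ran from 11.57 to 11.76 in wild-type mice at 28 °C, with a median of 11.67, and was 11.79, 11.74, 11.84, 11.82 and 11.85 at 5 °C. Null mice ran from 11.24 to 11.82 at 28 °C, with a median of 11.65, and gave 11.90, 11.90, 11.67, 11.86 and 11.91 at 5 °C. In wild-type mice the cold value of 11.74 lay within the warm range, and in null mice that of 11.67 did. In each genotype the other cold mice lay above every warm one. The average effect of 0.19 passed (SE 0.06, limma adjusted p = 0.0159). Those of 0.14 in wild-type mice and 0.24 in null mice did not (limma adjusted p = 0.266 and 0.0524). The null effect passed at 0.27 to 0.29 without 5 °C replicate 3, 28 °C replicate 2 or 28 °C replicate 5 (limma adjusted p = 0.0237 to 0.0405).

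Lipe, the hormone-sensitive lipase that protein kinase A activates by phosphorylation, gave no call. Its warm ranges were 8.94 to 9.16 in wild-type and 8.86 to 9.19 in null mice. At 5 °C the wild-type mice gave 9.08, 8.96, 9.11, 9.19 and 9.05, and the null mice 9.06, 9.21, 9.04, 9.05 and 9.22. The average cold effect was 0.07 with a 95% interval of −0.03 to 0.17 (limma adjusted p = 0.363), so a rise above 0.17 log2 units lies outside it. Phosphorylation and enzyme activity were not measured.

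Mgll, which also breaks down the endocannabinoid 2-arachidonoylglycerol, rose by 0.24 on average (SE 0.05, limma adjusted p = 0.00197). Wild-type mice ran from 9.92 to 10.09 at 28 °C and gave 10.18, 10.04, 10.18, 10.43 and 10.28 at 5 °C. Null mice ran from 9.69 to 10.05 at 28 °C and gave 10.25, 10.12, 10.13, 10.13 and 10.22 at 5 °C. The null groups did not overlap, and the wild-type groups shared 1 cold mouse. The effect passed in wild-type mice (0.25, limma adjusted p = 0.0322) and in null mice (0.24, limma adjusted p = 0.0454). The wild-type call was lost without 5 °C replicate 4 or 5 or 28 °C replicate 1, 2, 3 or 6 (0.19 to 0.24, limma adjusted p = 0.0562 to 0.105). The null call was lost without any 1 of the 5 °C mice or 28 °C replicate 1, 3 or 6 (0.19 to 0.25, limma adjusted p = 0.0591 to 0.112).

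Abhd5 and G0s2, the cofactor and the inhibitor of Pnpla2, rose together on average. Abhd5 ran from 8.50 to 8.94 in wild-type mice at 28 °C, with a median of 8.75, and was 9.20, 9.0, 9.16, 9.15 and 9.23 at 5 °C. Null mice ran from 8.42 to 9.17 at 28 °C and gave 8.90, 9.01, 9.27, 9.29 and 9.11 at 5 °C. The wild-type groups were apart and the null groups overlapped. The effect was 0.42 in wild-type mice (SE 0.11, limma adjusted p = 0.00935) and 0.33 in null mice (SE 0.11, limma adjusted p = 0.0488), with 0.37 on average (limma adjusted p = 0.000802). The null call was lost without 5 °C replicate 2, 3, 4 or 5 or 28 °C replicate 1, 2, 4, 5 or 6 (0.26 to 0.36, limma adjusted p = 0.0518 to 0.133).

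G0s2 spread widely between mice of a group, with SDs of 0.14 to 0.42 log2 units. Wild-type mice ran from 7.0 to 7.82 at 28 °C, with a median of 7.55, and gave 7.85, 8.18, 8.02, 8.19 and 7.99 at 5 °C. The wild-type groups did not overlap. Null mice ran from 7.50 to 8.57 at 28 °C, with a median of 7.87, and gave 8.39, 8.58, 8.68, 7.89 and 8.36 at 5 °C, with overlap. The effect was 0.60 in wild-type mice (SE 0.18, limma adjusted p = 0.0265) and 0.46 in null mice (SE 0.18, limma adjusted p = 0.113).

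The wild-type call of G0s2 was lost without 5 °C replicate 2 or 4 or 28 °C replicate 2 or 3 (0.51 to 0.57, limma adjusted p = 0.0599 to 0.0696). The null effect passed without 5 °C replicate 4 (0.58, limma adjusted p = 0.0471) or 28 °C replicate 3 (0.59, limma adjusted p = 0.0237). The dimmer G0s2 probe set, with group means of 4.88 to 5.34, gave smaller changes. Its cold effects were 0.33 (wild type) and 0.35 (null), and its average of 0.34 did not pass (SE 0.12, limma adjusted p = 0.0596), whereas that of the brighter one, 0.53, did (SE 0.13, limma adjusted p = 0.00376).

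The difference between the genotypes in their cold effects asks whether the response of these genes needs the receptor. By limma 0 of the 10 genes passed, and 0% of all genes were called. At an unadjusted p under 0.05 there were 0 of the 10, against 1137 of all 22180 genes. The null minus wild-type difference was −0.23 for Plin5 (95% interval −0.73 to 0.28), 0.01 for Plin2 (−0.23 to 0.25), −0.14 for G0s2 (−0.68 to 0.40), −0.09 for Abhd5 (−0.41 to 0.23), 0.10 for Pnpla2 (−0.14 to 0.34) and −0.02 for Plin4 (−0.29 to 0.24). A loss of the whole wild-type cold effect would lie outside these intervals for Plin5 (effect 2.25) and Plin2 (0.83), and just outside for Abhd5 (0.42). It would lie inside for G0s2 (0.60) and Plin4 (−0.23). For Pnpla2 (0.14) it would lie at the lower limit. The wild-type effects of Plin4 and Pnpla2 had not passed.

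Null and wild-type mice were also compared at each temperature, to ask which genes differ without regard to cold. At 28 °C and at 5 °C 0 of the 10 genes were called by limma. At an unadjusted p under 0.05 there were 2 and 1, against 1496 and 1476 of all 22180 genes. Of all genes 0.194% were called at 28 °C (0.0451% higher and 0.149% lower in null mice) and 0.149% at 5 °C (0.0406% higher and 0.108% lower). Averaged over both temperatures 1 of the 10 was called, against 0.41% of all genes (0.144% higher and 0.266% lower). This was Plin4, higher in null mice by 0.30 log2 units (SE 0.06, limma adjusted p = 0.0294), or 1.23-fold with a 95% interval of 1.12 to 1.35. The difference was 0.31 at 28 °C, where the genotypes did not overlap (limma adjusted p = 0.300; 0.555% of all genes were apart), and 0.29 at 5 °C, where they did (limma adjusted p = 0.457; 1.22% of all genes were apart, and 0 of the 10). The averaged call was lost without any 1 of 12 of the 22 mice: wild-type 28 °C replicate 2, 3 or 6, wild-type 5 °C replicate 1, 2 or 5, null 28 °C replicate 2, 3 or 4, or null 5 °C replicate 2, 3 or 5. Without 1 of these it was 0.27 to 0.30 (limma adjusted p = 0.0531 to 0.0771).

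G0s2 was the other gene with an unadjusted p under 0.05 in that average. It was 0.40 log2 units higher in null mice (95% interval 0.13 to 0.67), which did not pass (limma adjusted p = 0.310), and its dimmer probe set gave 0.12 (limma adjusted p = 0.906). For the other 8 genes the averaged genotype difference ran from −0.05 for Mgll to 0.04 for Lipe. Plin2 stood at −0.03 (95% interval −0.15 to 0.09) and Plin5 at 0.01 (−0.24 to 0.26).

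Plin4 and Plin5 are neighbours on chromosome 17, with Hdgfl2 on the outer side of Plin4 and Lrg1, which encodes a secreted leucine-rich glycoprotein, on that of Plin5. Lrg1 was also called higher in null mice, while Plin5, which lies between it and Plin4, gave an average genotype difference of 0.01 (limma adjusted p = 0.992). Lrg1 ran from 8.84 to 9.27 in wild-type and from 9.45 to 9.76 in null mice at 28 °C, with no overlap. Its null minus wild-type difference was 0.52 at 28 °C (SE 0.09, limma adjusted p = 0.00393), 0.17 at 5 °C (SE 0.09, limma adjusted p = 0.837) and 0.34 on average (limma adjusted p = 0.00849). Hdgfl2, a chromatin reader, gave −0.02 on average (limma adjusted p = 0.977). Loss of the receptor and other sequence differences between the strains cannot be told apart here.

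**Figure D3:**
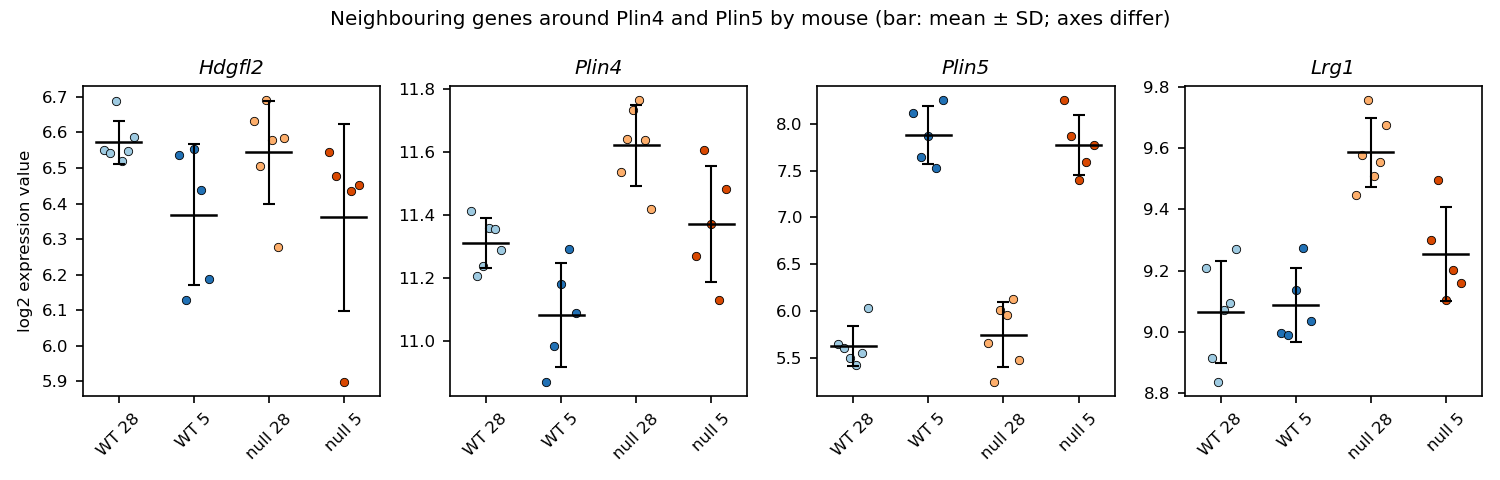
Log2 expression value in every mouse of Plin4, Plin5 and the genes on either side of the pair, in chromosomal order, by genotype and housing temperature in °C, with group means ± SD and axes scaled to each gene. Plin4 and Lrg1 are higher in null than in wild-type mice at 28 °C, Plin5 separates by temperature, and Hdgfl2 overlaps throughout.

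Around the 10 genes, 15 other genes of fat breakdown and the handling of its products were analysed from a list of 16. In the average cold effect 8 rose and 1 fell, with a median of 0.28 log2 units against 0.01 for all genes. Of all genes 11.7% were called higher and 13.1% lower. In wild-type mice 6 rose and 1 fell (8.35% and 8.3% of all genes). In null mice 7 rose and 0 fell (6.88% and 6.33% of all genes). The largest average changes were in Fabp5, a fatty acid carrier (1.28), and Ces1f, a carboxylesterase (0.88). The lipase Ddhd2 rose by 0.86 and Abhd6, a second enzyme that splits monoglycerides, by 0.67. The lysosomal lipase Lipa rose by 0.37. At the low end stood Cav1, the coat protein of caveolae, which fell by 0.22, and its partner Cavin1 (−0.10, limma adjusted p = 0.184). Hilpda, like G0s2 an inhibitor of Pnpla2, was at −0.03 (limma adjusted p = 0.881), and Fabp4, which binds Lipe, at 0.02 (limma adjusted p = 0.800).

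Pnpla3, a relative of Pnpla2 that remodels droplet triglyceride, was the 1 gene of this and the other pathway lists called between genotypes. Warm wild-type mice had 10.15 ± 0.31 (SD, n = 6) and warm null mice 9.03 ± 0.59 (SD, n = 6), a difference of −1.12 (SE 0.21, limma adjusted p = 0.0190). At 5 °C it was 10.57 ± 0.21 and 9.49 ± 0.31 (SD, n = 5 each), a difference of −1.08 that did not pass (limma adjusted p = 0.0712). The average difference was −1.10 (SE 0.16, limma adjusted p = 0.000456). Pnpla3 lies on chromosome 15 with Ppara itself, with 25 tested genes between them, so an effect of the receptor and one of the sequence around the disrupted gene cannot be told apart.

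The signals that switch lipolysis on or off were given by 22 genes of a list of 28, and the beta-adrenergic receptors were not analysed here. In the average cold effect 6 rose and 3 fell (11.7% and 13.1% of all genes), with a median of 0.08. Of 5 subunits of protein kinase A, which acts on Lipe and Plin1, the catalytic Prkaca rose by 0.52 and the regulatory Prkar2b by 0.57. The catalytic Prkacb (−0.11) and the regulatory Prkar1a (0.03) and Prkar2a (0.10) did not pass (limma adjusted p = 0.241, 0.663 and 0.550). Akap1, which anchors the kinase at mitochondria, rose by 0.70. Npr3, the clearance receptor for natriuretic peptides, was lower by 0.61 (limma adjusted p = 0.0194) and Pik3r1, a regulatory subunit of the insulin-signalling kinase, by 0.48 (limma adjusted p = 0.00400). Pde3b, the phosphodiesterase through which insulin restrains lipolysis, rose by 0.20 (limma adjusted p = 0.0135).

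Among 19 other droplet proteins analysed of 21 listed, 5 rose and 1 fell on average, with a median of 0.11. Of all genes 11.7% rose and 13.1% fell. Cidea, a droplet protein of brown fat, rose by 2.75 and Fitm2, which helps bud new droplets, by 0.61. Ldaf1, a seipin partner in droplet formation, fell by 0.52, and Mettl7a1 was at −0.21 (limma adjusted p = 0.0935). Cidec, the droplet fusion protein of white adipocytes, was at 0.02 (limma adjusted p = 0.809).

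**Figure D4:**
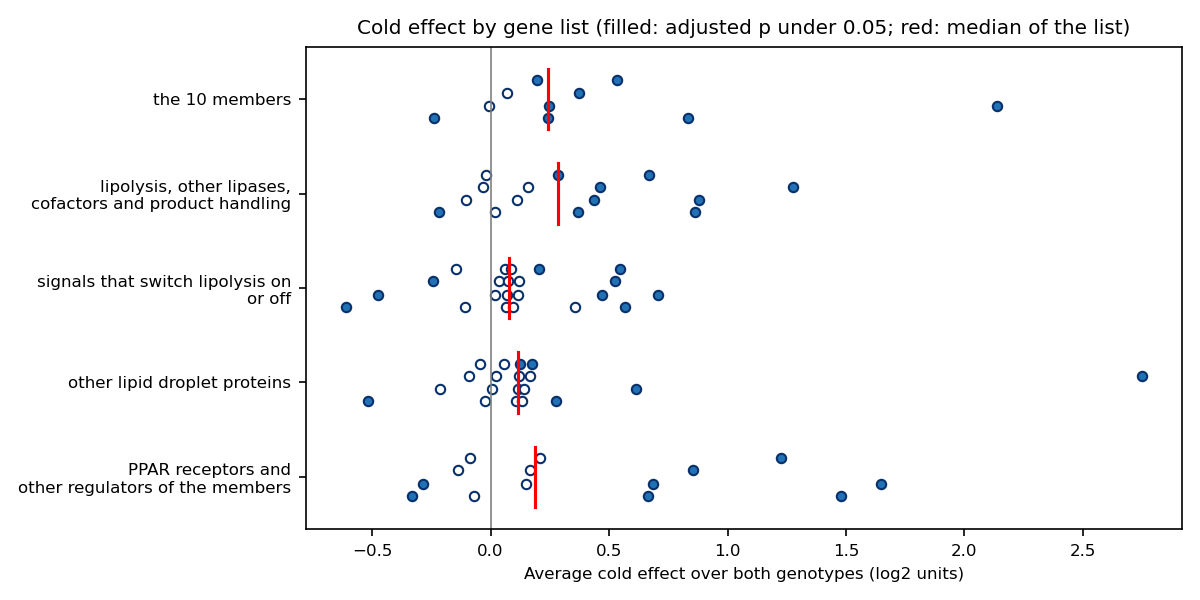
Average cold effect over both genotypes, in log2 units, for each gene of the 10-gene set and of 4 other lists. Each point is a gene, filled where it passed the test, and red lines mark list medians. Plin5 at 2.14 and Cidea at 2.75 lie far to the right of the other droplet genes.

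Of 14 receptors and regulators, 6 rose and 2 fell in the average cold effect (median 0.19), against 11.7% and 13.1% of all genes. The coactivator Ppargc1b rose by 1.48 and Ppara by 1.65, while Foxo1, which drives Pnpla2 when insulin is low, fell by 0.28 and Irf4, a factor induced in fasting fat, by 0.33. Ppara ran from 4.42 to 5.00 in wild-type mice at 28 °C, 6.13 to 6.98 at 5 °C, 4.14 to 5.45 in null mice at 28 °C and 5.77 to 7.10 at 5 °C. The null and wild-type ranges overlap at each temperature, so the genotype labels could not be checked with this probe set. Pparg and Ppard, the other PPARs, gave 0.15 and −0.09 (limma adjusted p = 0.155 and 0.188).

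The genes whose pattern was most like that of the 3 with the largest change were found by the root mean square difference over the 22 mice, each gene's own mean removed. For Plin5 they were Letmd1, a mitochondrial inner membrane protein (0.26 log2 units), Slc25a20, the carnitine carrier (0.29), and Aspg, an asparaginase and lysophospholipase (0.30), where Plin5 itself varied by 1.10 about its mean. For Plin2 they were Acadm, the medium-chain acyl-CoA dehydrogenase (0.10), Mdh2, mitochondrial malate dehydrogenase (0.11), and Tmem14c (0.11), where Plin2 varied by 0.43. For G0s2 they were Cox15 (0.27), Mgat4b (0.28) and Hexim1 (0.28), against 0.45 for G0s2 itself. For Plin5 these differences are about as large as its SD within groups, 0.21 to 0.34, so the likeness lies in the step between groups.

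**Figure D5:**
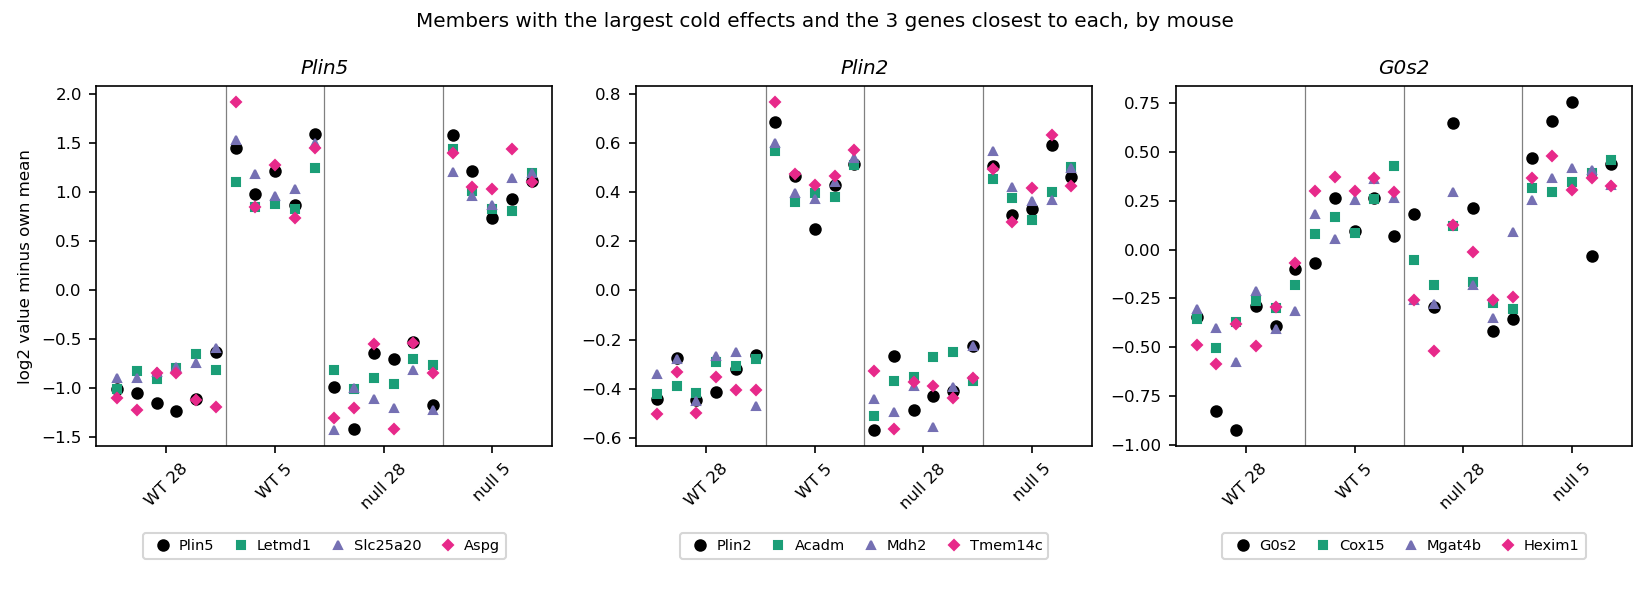
Log2 value minus the gene's own mean over the 22 mice, for Plin5, Plin2 and G0s2 (black) and the 3 genes closest to each (coloured). Mice are ordered by genotype and housing temperature in °C, with grey lines between groups. Plin5, Plin2 and the genes closest to them share the step between 28 °C and 5 °C, while single mice within a group differ between genes.

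Markers of some other cells moved in the cold too. In the average cold effect all 12 macrophage markers fell, as did the 8 analysed of 9 for preadipocytes and matrix-forming cells, and all 8 thermogenic adipocyte markers rose. Of all genes 11.7% rose and 13.1% fell. Of 6 endothelial markers 1 rose and 1 fell, and 0 of 8 lymphocyte and 0 of 5 epithelial markers analysed were called. The mean level of the lymphocyte markers varied widely between mice of a group, from 4.76 to 8.39 in warm null mice. The mean log2 level of the macrophage markers was 7.98 to 8.21 in warm and 7.34 to 7.66 in cold wild-type mice, and 7.99 to 8.28 and 7.52 to 7.67 in null mice. None of these lists had a marker called in the averaged genotype effect. Of 7 analysed markers of mature adipocytes, Adig rose and Adipoq and Lep fell, and their mean level was 9.77 to 10.16 over all mice. Muscle markers, of a tissue that also expresses Plin5, had 0 of 12 called by limma and ranged in mean level from 7.24 to 9.41, 6.42 to 10.15, 5.86 to 8.48 and 6.55 to 9.49 in warm and cold wild-type and warm and cold null mice. The part of these markers in the results was not tested. In whole fat, fewer cells of a type and less RNA per cell cannot be told apart.

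Across all genes the arrays resembled each other, with correlations between any pair of 0.966 to 0.990 and of 0.978 to 0.990 within a group. The number of arrays limits the precision.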

How the data were processed

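Inguinal fat RNA, 100 ng per mouse with an integrity number above 8, was measured on whole-transcript arrays, per the labels. The authors deposited RMA output on the log2 scale for every probe set, per the submitters' processing notes, and these numbers were used unchanged. Which version of RMA and which genome build were used is not stated in the labels. Of 41345 probe sets, 23521 had 1 gene symbol, which gave 22180 genes.

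All genes were fitted with limma 3.58.1 under R 4.3.3, all 4 groups together (residual degrees of freedom: 18), checked on simulated data, and adjusted by Benjamini-Hochberg over all genes. The genes and lists were chosen with earlier results of these data known, so counts over them are descriptions. From each list the 2 largest and 2 smallest average cold effects are named, plus genotype calls; the other list genes named, and the core motif and other short motifs searched beside the full repeat, were chosen after their values were seen. Protein sequences were not used here. Alternatives were array medians subtracted, the dimmest 25% or 50% of genes left out, averaging of a gene's probe sets, the gene's other probe set, a robust eBayes with a trend, array weights, only the groups compared, replicate number as a block, and each array left out in turn. Figures used pandas 2.3.3 and matplotlib 3.10.9.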

Additional observations from a re-analysis of the deposited data

Results flagged for a closer look

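Within groups of mice, 2 of 40 gene and group combinations had 1 mouse set apart from the others by Dixon's gap-to-range ratio at its 95% critical value, and about 2 of 40 would be by chance. Pnpla2 in null 5 °C replicate 3 was 11.67, below the other 4 mice at 11.86 to 11.91. Without that mouse the null cold effect of Pnpla2 was 0.29 and passed (limma adjusted p = 0.0272). Plin5 in wild-type 28 °C replicate 6 was 6.03, above the other 5 mice at 5.43 to 5.65, and still below every cold mouse.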

How the results depend on the processing

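The rises of Plin5 and Plin2 passed in both genotypes under every alternative run, with 1.91 to 2.34 and 0.78 to 0.90 log2 units over them. Of the 10 genes, 7 to 8 were called in the average cold effect under every alternative; Pnpla2 was lost with the replicate block (0.15, limma adjusted p = 0.0648). In wild-type mice leaving out 1 mouse gave 3 to 5 called genes, and the other alternatives gave 4 to 6. The fall of Plin4 (−0.23) was called there without the dimmest 50% of genes or with a robust eBayes with a trend (limma adjusted p = 0.0410 and 0.0436). In null mice leaving out 1 mouse gave 3 to 5. Array weights, the replicate block and the fit of only the groups compared gave 3 each in null mice, without Mgll and Abhd5. The null count was 6 with array medians subtracted, where Pnpla2 was added. It was 7 without the dimmest 25% or 50% of genes or with a robust eBayes with a trend. These 7 included the rise of Pnpla2 and the fall of Plin4 (−0.25, limma adjusted p = 0.0295 to 0.0495). In the averaged genotype effect the replicate block gave 0 (Plin4 at 0.30, limma adjusted p = 0.0849) and leaving out 1 mouse 0 to 1. Whether the replicate numbers pair the mice is not known, and the correlations of deviations from group means cannot settle it. Over 31 same-numbered pairs they ran from −0.25 to 0.35 with a median of −0.04, against a median of 0.003 over 150 differently numbered pairs. Of 22 mice, 4 correlated best with a mouse of their own number.

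Over all genes, the genotype effect at 5 °C called 33 genes, or 19 with only the groups compared, and the difference of the cold effects 0 to 1 without 1 mouse. With array medians subtracted the average cold effect called 3578 genes higher and 2052 lower, against 2586 and 2913, and array medians themselves moved by −0.05 log2 units with cold. Of all 1637 values recomputed for the 10 genes, passing or not, 78 changed sign, and none of these passed. Arrays have no read depth, so their number limits the precision.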

Other observations

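The genes next to the 10 on the chromosome were mostly not called. Beside Plin1, which did not change beyond its spread, Pex11a, a peroxisome division gene, rose by 0.67 log2 units in wild-type mice (SE 0.13, limma adjusted p = 0.000695) and by 0.73 in null mice (SE 0.13, limma adjusted p = 0.000375). On its other side Kif7, a kinesin of hedgehog signalling, fell by 0.29 on average (limma adjusted p = 0.0158). Beside Plin2, Scarna8, a small Cajal body RNA gene, fell by 0.25 on average (limma adjusted p = 0.0245). Its change was −0.44 in wild-type mice (limma adjusted p = 0.00724) and −0.05 in null mice (limma adjusted p = 0.854). These 2 effects were not shown to differ (null minus wild type 0.39, limma adjusted p = 0.963). The group means of Scarna8, 3.96 to 4.40, lay below the median of all genes on every array. On the other side of Plin2, Dennd4c gave −0.02 on average (limma adjusted p = 0.836).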
